A study of Mus musculus with 6 samples.

Results

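Amino acid transporters of the plasma membrane, 10 genes, were followed in mouse livers with and without AEG-1 in the hepatocytes. They are the 10 rows, of 46983 in the count table, whose identifiers carry the symbols Slc3a1, Slc3a2, Slc7a2, Slc7a5, Slc7a9, Slc38a2, Slc38a3, Slc38a4, Slc43a1 and Slc16a10. The set was chosen by symbol, as heteromeric transporters and carriers of systems A and N, with the log2 fold change between the groups already known for these genes, so that difference is given here as a description. The study sequenced RNA of whole livers from chow-fed, untreated mice aged 12 weeks on a C57BL/6 background. The knockout group is labelled AEG-1DHEP and lacks AEG-1, the product of Mtdh, specifically in hepatocytes, so the other cells of the liver keep the gene. The control group is labelled AEG-1fl/fl, with sample titles that call it wild type. The sources used here name neither the driver of the deletion nor the sex of the mice. The labels give 3 mice per group, but control replicate 2 had the same count as control replicate 1 for each gene. This pair thus differed by less than sampling noise and was counted as 1 sample, called control replicate 1. This left 3 knockout libraries and 2 distinct control libraries.

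Amino acids cross the hepatocyte membrane through several families of carriers. Heteromeric transporters pair a heavy chain of the SLC3 family, which brings the complex to the membrane, with a light chain of the SLC7 family, which carries the substrate. System A and system N carriers of the SLC38 family move small neutral amino acids and glutamine together with sodium, and the liver relies on them to take up alanine and glutamine for glucose and urea synthesis. Facilitators such as Slc43a1 and Slc16a10 let neutral or aromatic amino acids pass down their gradients.

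The libraries held 29557477 to 33685670 counts, so 3 counts corresponded to 0.089 to 0.101 CPM (counts scaled to a common library size). Mtdh had 89, 74 and 76 counts in the knockout libraries and 1529 and 1612 in the control libraries, so each library went with its label. The defining hepatocyte markers were present throughout, with 79393 to 110700 CPM summed over 9 genes. Kidney tubule markers, listed because Slc3a1 and Slc7a9 are known from the kidney, were at 0 in every library for 5 of 7 genes and at no more than 2 counts for Umod and Slc5a2. Knockout replicate 1 stood apart in 6 skeletal muscle genes, with a summed 35.3 CPM against 0.66 to 1.19 CPM in the other libraries.

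The sequence upstream of the start site is shown for 3 members whose window shares almost no base with annotated exons: Slc3a1, which had the largest difference between the groups, and the system A carriers Slc38a4 and Slc38a2, whose groups overlapped. Each is the 250 bases before the RefSeq start on GRCm38.p6, 5′ to 3′ on the gene's strand. Capitals mark matches, on either strand, to TATAAA (the TATA box), CAAAGTCCA (a binding element of the hepatocyte factor HNF4) or GGGCGG (a GC box). RefSeq upstream sequences matched 7 of the 10 symbols, with 10 start sites.
Slc3a1, chr17:85028097-85028346, plus strand: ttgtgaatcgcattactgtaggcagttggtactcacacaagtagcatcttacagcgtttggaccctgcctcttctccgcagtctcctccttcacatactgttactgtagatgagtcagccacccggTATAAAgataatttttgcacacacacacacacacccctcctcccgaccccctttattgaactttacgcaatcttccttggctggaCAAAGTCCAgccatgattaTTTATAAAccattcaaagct
Slc38a4, chr15:97055957-97056206, minus strand: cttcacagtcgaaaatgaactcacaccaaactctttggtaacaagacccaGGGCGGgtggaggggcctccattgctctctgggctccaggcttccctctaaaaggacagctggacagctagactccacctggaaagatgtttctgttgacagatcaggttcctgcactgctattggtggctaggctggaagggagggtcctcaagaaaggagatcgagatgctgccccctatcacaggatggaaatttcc
Slc38a2, chr15:96699729-96699978, minus strand: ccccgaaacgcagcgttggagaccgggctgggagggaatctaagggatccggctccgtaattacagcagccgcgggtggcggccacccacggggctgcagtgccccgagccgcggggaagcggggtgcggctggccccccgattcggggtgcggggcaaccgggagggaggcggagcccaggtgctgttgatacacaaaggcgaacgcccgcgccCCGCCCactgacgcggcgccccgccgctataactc
The Slc3a1 window was the one among the 10 with CAAAGTCCA, at 39 to 31 bases before the start, and it carried TATAAA on the forward strand at -18 to -13 (overlapped by a reverse match from -20 to -15) and at -124 to -119. CAAAGTCCA occurred in 126 of 32851 upstream windows of the same length (0.384%). TATAAA was in 3 of the 10 windows, those of Slc3a1, Slc43a1 and another Slc38a4 start, and in 12.4% of all windows; the Slc38a4 window shown is 1 of 3 for that gene and holds none. The GC content of the window was 45.6% for Slc3a1, 52.8% for Slc38a4 and 72.0% for Slc38a2, against a median of 52.4% over all windows. A GC box was in 6 of the 10 windows and in 32.7% of all windows. These 6 belong to 5 of the 7 matched members, with none for Slc3a1 or Slc7a9. The E-box CACGTG, searched likewise, was in the Slc43a1 window alone of the 10 and in 6.02% of all windows. The amino acid response element recognised by ATF4 with C/EBP factors, searched as TGATGNAA on both strands, was in none of the 10 windows and in 3.45% of all windows. Slc7a2, Slc7a5 and Slc38a3 had no window, and bases outside the windows were not searched, so the genes may hold the element elsewhere. These matches describe the letters of the windows and do not show binding.

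Levels of the 10 genes spanned a wide range, and the SLC38 carriers made up most of the total. On the per-length scale (RPKM, CPM divided by the exon length in kilobases), the means of the 2 group means ran from 525 for Slc38a3 through 414 for Slc38a4, 80.1 for Slc7a2, 28.1 for Slc38a2, 18.5 for Slc3a1, 16.5 for Slc16a10, 7.91 for Slc3a2 and 2.49 for Slc43a1 to 0.53 for Slc7a5. Slc38a3 and Slc38a4 together took 84.5% to 87.4% of the summed RPKM of the 10 genes in each library. Their ranges over the 5 libraries overlapped (408 to 683 RPKM and 355 to 513 RPKM), yet within each library Slc38a3 was the higher, by 1.08 to 1.42 times. Slc38a2 (18.2 to 47.3 RPKM), Slc3a1 (9.67 to 28.6 RPKM) and Slc16a10 (14.3 to 19.0 RPKM) also overlapped as neighbours in this order. Slc7a9 was below all of these, with 5 counts over the 5 libraries.

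**Figure D1:**
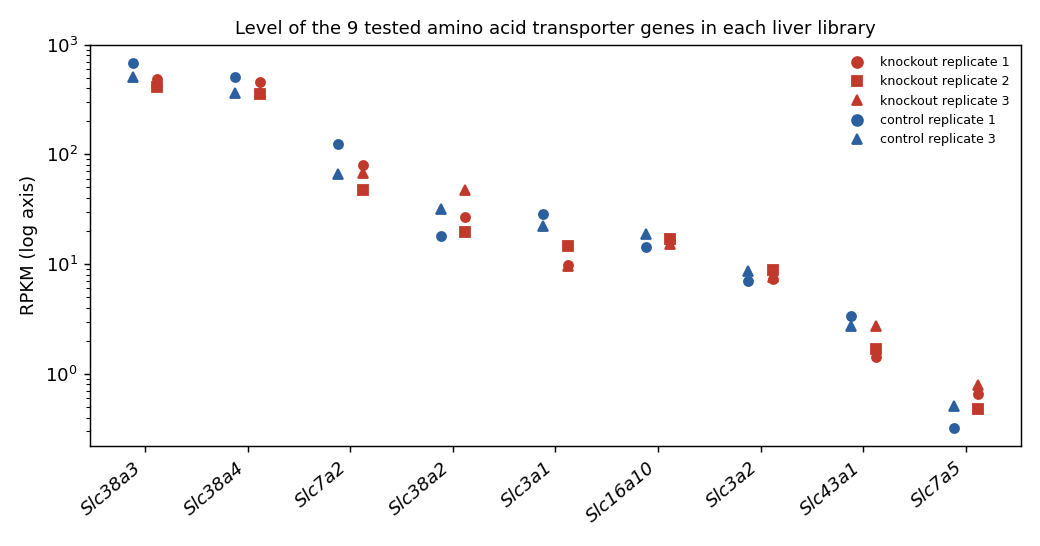
RPKM on a log axis (vertical) of the 9 tested transporter genes (horizontal, ordered by level) in each of the 3 knockout (red) and 2 distinct control (blue) libraries, 1 point per library. Slc38a3 and Slc38a4 lie at 355 to 683 RPKM and Slc7a5 below 1 RPKM; the red points of Slc3a1 lie under its blue points, those of Slc38a3 and Slc43a1 do so by less, and the other genes overlap.

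Slc3a1 encodes rBAT, the heavy chain that forms the cystine and dibasic amino acid transporter of kidney and gut with Slc7a9, and mutations in either gene are known to cause cystinuria. Slc3a1 (ENSMUSG00000024131, GRCm38 chromosome 17, 85028347 to 85064243, plus strand, as in the count table) had 22.9, 33.8 and 22.3 CPM in knockout replicates 1 to 3 and 65.9 and 51.7 CPM in control replicates 1 and 3. The groups did not overlap: the highest knockout library lay below the lower control library. The means were 26.3 ± 6.50 CPM (SD, n = 3) and 58.8 ± 10.002 CPM (SD, n = 2), which puts the knockout at 44.8% of the control. The log2 fold change, knockout minus control, was -1.16 (SE 0.21). The counts behind these values were 702, 1121 and 714 in the knockout and 2098 and 1527 in the control libraries, so counting error was small beside the spread between libraries. Without knockout replicate 1, the library high in muscle genes, the estimate was -1.07, without control replicate 1 it was -0.98, and without knockout replicate 2 it was -1.38.

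The 3′ end of Slc3a1 shares 608 exon bases with Prepl on the opposite strand, and the sources used here do not say whether the counting used strand, so reads from the shared bases are uncertain. Prepl, a peptidase-like gene, had 29.0, 30.4 and 23.7 CPM in the knockout and 29.5 and 33.3 CPM in the control libraries, with a log2 fold change of -0.18 (SE 0.14). Its groups overlapped, and its part in the Slc3a1 difference was not tested.

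Slc7a9 (chromosome 7, 35448796 to 35466036, plus strand), the light chain known to pair with rBAT in the kidney, had 0, 2 and 0 counts in the knockout and 0 and 3 counts in the control libraries, a level of at most 0.038 RPKM. These counts are at or under 3 in each library, so no fold is given, and the gene was dropped by the filter on low counts. Slc7a13, another known light chain of rBAT, had 2, 2 and 2 counts in the knockout and 0 and 1 in the control libraries. Both known partners were thus near the limit of detection at this depth, while Slc3a1 itself was at 702 to 2098 counts.

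**Figure D2:**
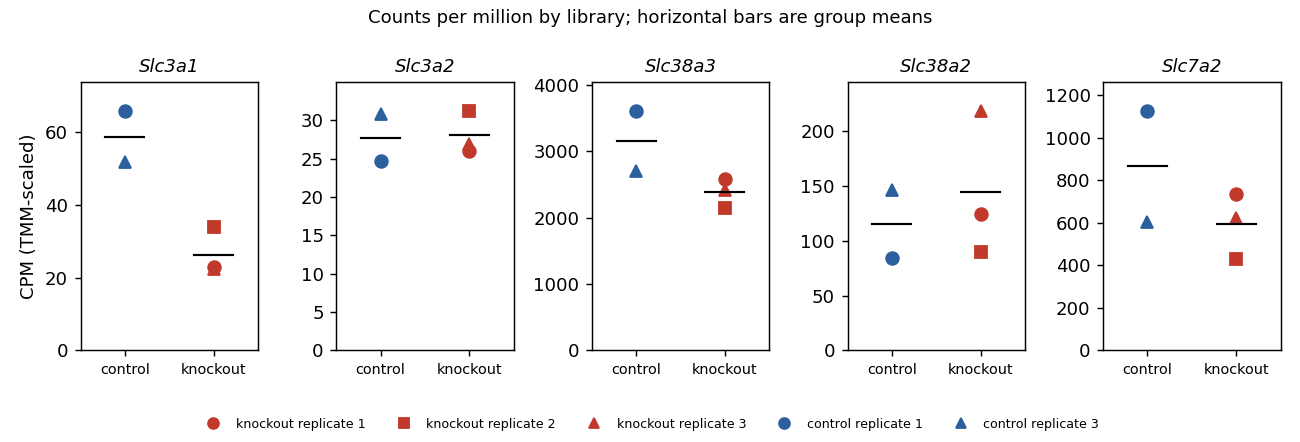
CPM (vertical, starting at 0, a separate scale per panel) of 5 transporter genes in each library, with controls at the left and knockouts at the right of each panel; horizontal bars are group means. The 3 knockout points of Slc3a1 (22.3 to 33.8 CPM) lie below both control points (51.7 and 65.9 CPM), Slc38a3 separates more narrowly, and the other 3 genes overlap.

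Slc3a2 (chromosome 19, 8706882 to 8723369, minus strand) encodes the heavy chain of CD98, the partner of the LAT light chains. It had 26.0, 31.2 and 26.9 CPM in the knockout and 24.7 and 30.9 CPM in the control libraries. Means were 28.05 ± 2.78 CPM (SD, n = 3) and 27.8 ± 4.37 CPM (SD, n = 2), and the log2 fold change was 0.01 (SE 0.14), with a 95% interval of -0.33 to 0.36. The groups overlapped, and the sign turned with upper-quartile scaling (-0.0067). The ratio of Slc3a2 to Slc3a1 on the RPKM scale was 0.60 to 0.79 in the knockout and 0.24 and 0.39 in the control libraries. With Slc3a2 nearly level between the groups, this ratio restates the Slc3a1 difference and adds no separate result.

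Slc7a5 (chromosome 8, 121881150 to 121907694, minus strand), the LAT1 light chain that exchanges large neutral amino acids and is known to be low in adult liver, had 2.41, 1.78 and 2.94 CPM in the knockout and 1.19 and 1.90 CPM in the control libraries. Knockout replicate 2 lay within the control range. The log2 fold change was 0.62 (SE 0.32), from 38 to 94 counts per library, and it was 0.32 without control replicate 1 and 0.99 without control replicate 3. Slc3a2 exceeded Slc7a5 by 9.61 to 21.7 times in RPKM, so the heavy chain transcript was above that of this light chain in all 5 libraries.

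Slc7a2 (chromosome 8, 40862396 to 40922308, plus strand) encodes CAT-2, a carrier of arginine, lysine and ornithine that works without a heavy chain. It had 736, 432 and 622 CPM in the knockout and 1126 and 606 CPM in the control libraries. Control replicate 1 was high and control replicate 3 lay among the knockout libraries, a 1.86-fold spread between controls. The log2 fold change was -0.54 (SE 0.32), and it was -0.03 without control replicate 1 and -0.91 without control replicate 3. The gene shares 635 exon bases with the noncoding gene Gm26584 on the opposite strand, which had 16 to 112 counts against 14325 to 35877 for Slc7a2.

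Slc38a3 (chromosome 9, 107650634 to 107669530, minus strand), or SNAT3, is the system N carrier that moves glutamine, histidine and asparagine into and out of hepatocytes. It had 2584, 2151 and 2420 CPM in the knockout and 3604 and 2703 CPM in the control libraries. The groups did not overlap, but the gap was narrow beside the 1.33-fold spread between the controls. The log2 fold change was -0.40 (SE 0.19), with -0.19 without control replicate 1. Slc38a3 lies on chromosome 9 between 105 and 110 Mb, a stretch known from earlier results of these data. In it, an unadjusted p under 0.01 was found for 7 of the 105 genes tested (6.67%), against 0.541% of all tested genes. The stretch came to notice in these same data, so its share is given as a description. Slc38a3 itself is not among the 7, with an unadjusted p of 0.0739 by edgeR's quasi-likelihood test. The median log2 fold change of the 105 genes was 0.03, and any part of this stretch in the Slc38a3 difference was not tested.

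Slc38a4 (chromosome 15, 96994823 to 97055956, minus strand), or SNAT4, is the system A carrier typical of the liver. It had 1789, 1404 and 1455 CPM in the knockout and 2027 and 1425 CPM in the control libraries, with overlapping groups. Its log2 fold change was -0.16 (SE 0.21), and it was 0.12 without control replicate 1. The ratio of Slc38a3 to Slc38a4 in RPKM was 1.08, 1.15 and 1.25 in the knockout and 1.33 and 1.42 in the control libraries.

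Slc38a2 (chromosome 15, 96687394 to 96699698, minus strand), or SNAT2, is the system A carrier known to rise when amino acids are scarce. It had 125, 90.1 and 219 CPM in the knockout and 84.0 and 147 CPM in the control libraries. It was the most variable tested member among the knockouts, with a 2.43-fold range set by knockout replicate 3, and the groups overlapped. The log2 fold change of 0.33 (SE 0.40) became -0.10 without knockout replicate 3 and -0.03 without control replicate 1.

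Slc43a1 (chromosome 2, 84838850 to 84863594, plus strand), or LAT3, is a facilitator of leucine, phenylalanine and similar amino acids. It had 8.07, 9.66 and 15.5 CPM in the knockout and 19.1 and 15.6 CPM in the control libraries. The groups did not overlap, but knockout replicate 3 and control replicate 3 almost met. The log2 fold change was -0.65 (SE 0.28), ranging from -0.97 without knockout replicate 3 to -0.47 without knockout replicate 1.

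Slc16a10 (chromosome 10, 40033535 to 40142254, minus strand), or TAT1, is a facilitator of aromatic amino acids. It was the steadiest member in the knockouts, with 90.2, 91.7 and 83.1 CPM, against 77.0 and 102 CPM in the control libraries. The knockout libraries lay between the controls, and the log2 fold change was -0.02 (SE 0.15), with a sign that turned under library-total scaling (0.0049).

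**Figure D3:**
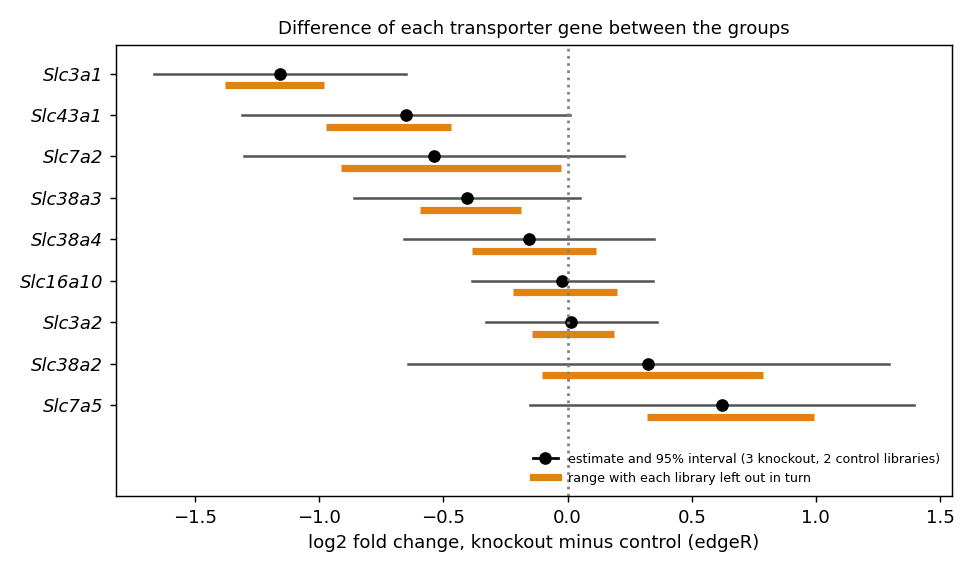
Log2 fold change, knockout minus control, of the 9 tested transporter genes (vertical axis) with its 95% interval from the edgeR fit (black) and the range of the estimate when each of the 5 libraries is left out in turn (orange). Slc3a1 lies at -1.16 and ranges from -0.98 to -1.38, while the orange bars of Slc38a4, Slc16a10, Slc3a2 and Slc38a2 cross 0.

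Across the 9 tested members, 3 had a log2 fold change above 0 and 6 below 0, with a median of -0.16 against 0.01 over all 16441 tested genes, of which 47.9% were below 0. By edgeR's quasi-likelihood test with adjustment over all genes, 0 of 9 members passed at 0.05 in either direction, where 0% of all tested genes were called higher and 0.00608% (Mtdh alone) lower. At an unadjusted p under 0.05 there was 1 member, Slc3a1, where the share over all genes was 3.43% (1.8% lower and 1.63% higher). DESeq2 called 1 member, Slc3a1, lower, where it called 0.0791% of all genes lower and 0.0365% higher, and limma-voom called 0. The DESeq2 call of Slc3a1 (adjusted p = 0.00583) depended on single libraries, with an adjusted p of 0.191 when knockout replicate 1 was left out and 0.575 when control replicate 1 was. It held in the 3 other cases, from 3.54e-08 to 0.0178. DESeq2 also called Slc43a1 when knockout replicate 3 was left out (adjusted p = 0.0176), so the number of members called ran from 0 to 2 over these fits. The groups did not overlap in 3 members, Slc3a1, Slc38a3 and Slc43a1, with the knockout below in each, where 16.9% of all tested genes did not overlap (8.72% with the knockout below and 8.16% above). Without knockout replicate 1, the library high in muscle genes, all 9 kept the sign of their log2 fold change. The members were chosen with this comparison in view, so these counts stand as a description. In 7 of the 9 tested members the 2 control libraries differed from each other by a larger factor than the groups did. The exceptions were Slc3a1 and Slc43a1. The 3 knockout libraries also spread by a larger factor than the groups differed in 7 of the 9. Here the exceptions were Slc3a1 and Slc38a3, while Slc43a1 had a 1.92-fold range among the knockouts. Slc3a1 was thus the one member whose group difference exceeded the spread within both groups.

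The pattern of Slc3a1 across the libraries was set beside that of every other tested gene. Likeness was the root-mean-square difference in log2 CPM over the 5 libraries after each gene's mean was subtracted, among genes with a mean of at least 2 CPM. The nearest 5 were Myh11, the smooth muscle myosin heavy chain (0.13), Acta2, smooth muscle actin (0.19), Myl9, a myosin light chain (0.22), Myh10, a nonmuscle myosin (0.26), and Sox9, a transcription factor of bile duct cells (0.26). Myh11 had 3.16, 3.71 and 2.84 CPM in the knockout and 7.63 and 5.83 CPM in the control libraries, and, like Slc3a1, was lowest in knockout replicate 3 and highest in control replicate 1. With 5 libraries, many genes can share such a pattern, and the measure takes in the difference between the groups. Slc43a1 and Slc38a3 differed from Slc3a1 by 0.48 each on this scale.

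**Figure D4:**
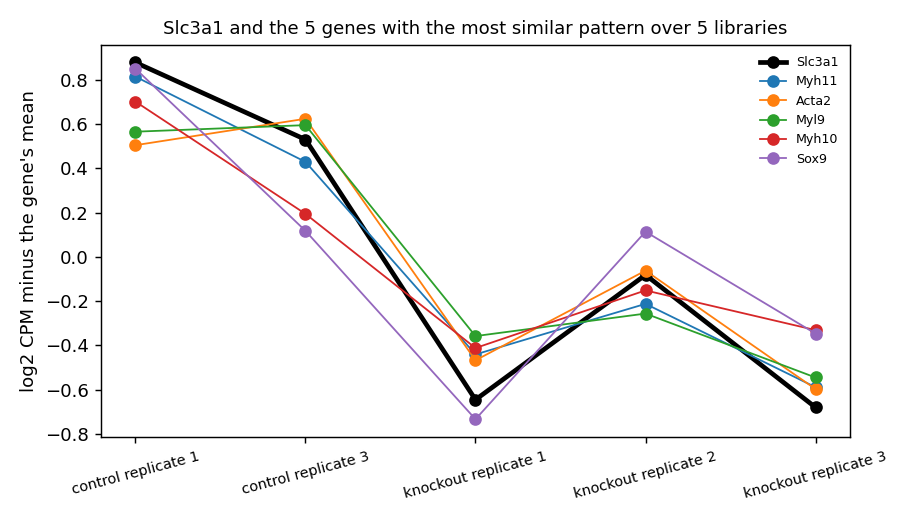
Log2 CPM minus the gene's own mean over the libraries (vertical) in the 2 control and 3 knockout libraries (horizontal) for Slc3a1 (black) and the 5 genes with the smallest root-mean-square difference from it; lines join the points of a gene and carry no order. For Slc3a1 the control points lie at 0.88 and 0.53 and the knockout points at -0.65, -0.08 and -0.68.

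Acta2, Myh11 and Sox9 are also known as markers of cells other than hepatocytes, so marker lists of other cells are given here. Sox9 is in the cholangiocyte list. Smooth muscle cells had no list, and Acta2 and Myh11 are in none of the lists, so those cells are not covered. All 8 stellate cell and pericyte markers had a log2 fold change below 0. Their summed levels were 200 to 287 CPM in the knockout and 270 to 280 CPM in the control libraries, mostly from Dcn and Reln. Rgs5 had 632 to 763 counts in the knockout and 1271 and 924 in the control libraries. Col1a1 had 79 to 99 counts in the knockout and 152 and 131 in the control libraries. The groups overlapped in the other markers of this list, where 8.72% of all tested genes had the knockout below without overlap. All 8 sinusoidal endothelial markers were likewise below 0, with sums of 206 to 280 CPM and 264 to 318 CPM. The cholangiocyte markers summed to 53.3 to 58.7 CPM in the knockout and 41.4 and 62.5 CPM in the control libraries, with 4 of 6 tested genes below 0. Most of this sum was Spp1, with 868 to 1666 counts and its lowest count in control replicate 1. Sox9 had 2.64, 4.80 and 3.47 CPM in the knockout and 8.04 and 4.81 CPM in the control libraries. Krt19, a defining marker, was at 14 to 27 counts. Kupffer cell and macrophage markers were below 0 for 8 of 9 genes, with sums of 204 to 242 CPM in the knockout and 214 and 269 CPM in the control libraries. Erythroid markers were below 0 for 5 of 5 genes, with sums of 424 to 543 CPM in the knockout and 503 and 674 CPM in the control libraries. Markers of T, NK and B cells were below 0 for 3 of 4 tested genes, with sums of 4.81 to 5.43 CPM and 4.17 to 6.94 CPM. The hepatocyte markers themselves were below 0 for 6 of 9 genes, where 47.9% of all tested genes were. Adipocyte markers summed to 4.34 to 9.28 CPM in the knockout and 6.23 and 6.75 CPM in the control libraries. Fabp4 and Cfd gave nearly all of this, with Adipoq, Plin1 and Lep at no more than 1 count in any library. Exocrine pancreas markers summed to 0.78 to 1.09 CPM and 1.16 to 1.19 CPM. Small intestine markers summed to 213 to 931 CPM and 174 to 355 CPM, with 2 of 6, Sis and Alpi, at 0 in every library. Nearly all of that sum came from Apoa4 (3752 to 26663 counts) and Fabp2 (1784 to 4194 counts). Lct had at most 1 count and Vil1 had 1 to 7 counts per library. None of the genes of these lists passed by edgeR. In whole liver, fewer cells of a type and less RNA per cell cannot be told apart, and the part of these markers in the Slc3a1 difference was not tested.

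Of 30 other listed amino acid carriers of the plasma membrane, 15 were tested, and the 15 others had at most 9 counts in any library. Among the tested 15, 4 had a log2 fold change above 0 and 11 below 0 (median -0.14, ranging from -0.28 without control replicate 3 to -0.029 without control replicate 1). None passed by edgeR, DESeq2 or limma-voom, and 1 had an unadjusted p under 0.05, where 3.43% of all tested genes did. That gene was Slc1a5, the glutamine and neutral amino acid exchanger ASCT2, with 2.02, 1.84 and 2.03 CPM in the knockout and 3.74 and 2.44 CPM in the control libraries, a log2 fold change of -0.65 (SE 0.25), or -0.32 without control replicate 1. The other 2 with the smallest p were Slc43a2, a relative of Slc43a1, with -0.38 (SE 0.16), and Slc38a1 with -0.38 (SE 0.26), or -0.15 without control replicate 1. The highest levels were those of Slc6a13 (65.7 RPKM), Slc6a12 (26.1 RPKM) and Slc6a6 (15.2 RPKM), carriers of GABA, betaine and taurine, with log2 fold changes of 0.17 (SE 0.12), -0.11 (SE 0.17) and -0.03 (SE 0.13). Slc6a13 had 0.11 without control replicate 1, while the signs of Slc6a12 and Slc6a6 turned (0.15 and 0.086). The heavy chain Slc3a1, at 25.5 RPKM in the controls and 11.4 RPKM in the knockouts, was thus at a level near those of Slc6a12 and Slc6a6.

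Of 13 listed carriers of mitochondria and lysosomes, 11 were tested, with 6 above and 5 below 0. The median log2 fold change was 0.016. It was below 0 in several of the alternative fits, with -0.13 without knockout replicate 2 the lowest. None passed by any of the 3 tools, and 0 had an unadjusted p under 0.05, where 3.43% of all tested genes did. The highest were Slc25a15, the ornithine carrier of the urea cycle (95.8 RPKM), Slc25a13, the aspartate and glutamate carrier citrin (68.7 RPKM), and Slc25a22, a glutamate carrier (33.7 RPKM). Their log2 fold changes were -0.19 (SE 0.14), 0.08 (SE 0.16) and -0.33 (SE 0.14). Slc25a44, a branched-chain amino acid carrier, had 0.25 (SE 0.15) and Slc25a38, a glycine carrier, -0.18 (SE 0.13). Control replicate 1 carried much of both: without it they had 0.050 and -0.079, and without control replicate 3 they had 0.48 and -0.27.

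ATF4 is the transcription factor that raises transporters and synthetic enzymes when amino acids run short, and Slc7a5, Slc3a2 and Slc38a2 are among its known targets. Of 20 other genes of this response, 17 were tested, with 9 above and 8 below 0 (median 0.07, turning to -0.061 when knockout replicate 2 was left out). None passed by edgeR, DESeq2 or limma-voom, and 2 had an unadjusted p under 0.05, where 3.43% of all tested genes did. Asns, asparagine synthetase, had 1.99, 1.15 and 0.78 CPM in the knockout and 13.2 and 2.13 CPM in the control libraries, so its difference (log2 fold change -2.56, SE 0.74) rested largely on control replicate 1, without which it was -0.72. Control replicate 1 was, by contrast, the lowest library for Slc38a2, Slc3a2 and Slc7a5. Cth, the cystathionine lyase that yields cysteine, had -0.51 (SE 0.21) and Ddit3, or CHOP, 0.38 (SE 0.18). Atf5 ranged from 77.1 to 231 CPM among the knockouts and from 103 to 276 CPM between the controls, with -0.22 (SE 0.54), and Gpt2, an alanine aminotransferase, had 0.07 (SE 0.20).

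The kinase complex mTORC1 senses amino acids through a set of lysosomal and cytosolic proteins. All 21 listed genes of this set were tested, with 15 above and 6 below 0. Their median log2 fold change was 0.05, or 0.0071 without knockout replicate 2. None passed by any of the 3 tools, and 0 had an unadjusted p under 0.05, where 3.43% of all tested genes did. The highest levels belonged to the Ragulator subunits Lamtor4 (30.7 RPKM), Lamtor2 (29.7 RPKM) and Lamtor1 (23.0 RPKM), with log2 fold changes of 0.16 (SE 0.11), 0.01 (SE 0.10) and 0.05 (SE 0.14). The sestrins Sesn1 and Sesn3, of a family known for leucine sensing, had -0.32 (SE 0.15) and -0.46 (SE 0.27). Sesn1 had -0.19 without control replicate 1, and Sesn3 had -0.26 when knockout replicate 3, or -0.27 when control replicate 3, was left out.

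The enzymes that use the transported amino acids were also described as a list. All 19 were tested, with 7 above and 12 below 0 (median -0.06, ranging from -0.25 without knockout replicate 3 to 0.016 without control replicate 1). None passed by any of the 3 tools, and 2 had an unadjusted p under 0.05, where 3.43% of all tested genes did. These were Bckdhb, a subunit of the branched-chain keto acid dehydrogenase, with -0.51 (SE 0.15), and Glul, glutamine synthetase, with 0.47 (SE 0.18). Bckdhb had -0.32 without control replicate 3, and Glul had 0.24 without control replicate 1. Bcat2, a branched-chain aminotransferase, had -0.27 (SE 0.18). Arg1, Hpd and Cps1, with the highest levels, had -0.20 (SE 0.19), -0.05 (SE 0.18) and -0.26 (SE 0.24). Without knockout replicate 2, Arg1 had -0.057 and Cps1 -0.10. Of the 10 periportal hepatocyte markers, 8 were below 0 (median -0.30, ranging from -0.48 without control replicate 3 to -0.11 without control replicate 1, with -0.12 without knockout replicate 2). Of the 10 pericentral markers 0 were (median 0.25, ranging from 0.24 without control replicate 1 to 0.50 without control replicate 3). The lists share genes, so their counts are not separate. Arg1, Cps1, Ass1 and Gls2 are in the enzyme and periportal lists, and Glul and Oat in the enzyme and pericentral lists. Slc1a2, Slc7a11, Sesn2 and Slc38a9 are likewise in 2 lists each. Cyp2e1, the pericentral gene with the highest level, had 0.37 (SE 0.17), Lect2 had 0.46 (SE 0.17; 0.26 without control replicate 1), Oat 0.16 (SE 0.37) and Cyp1a2 0.12 (SE 0.30). Among the periportal genes, Ass1 had -0.34 (SE 0.28), Sds -0.52 (SE 0.28) and Gls2 -0.47 (SE 0.33). Without control replicate 1 these were -0.046, -0.15 and -0.068. None of either list passed by edgeR. An unadjusted p under 0.05 was found for 1 periportal and 2 pericentral genes, where 3.43% of all tested genes had one. DESeq2 called 1, Hal of the periportal list, lower, where it called 0.0791% of all tested genes lower. Hal, with -0.79 (SE 0.17), lay 0.32 from Slc3a1 in pattern, the nearest of all the listed genes of amino acid handling. Both genes were lower in the knockout and the measure takes in that difference, so this nearness adds no separate result.

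**Figure D5:**
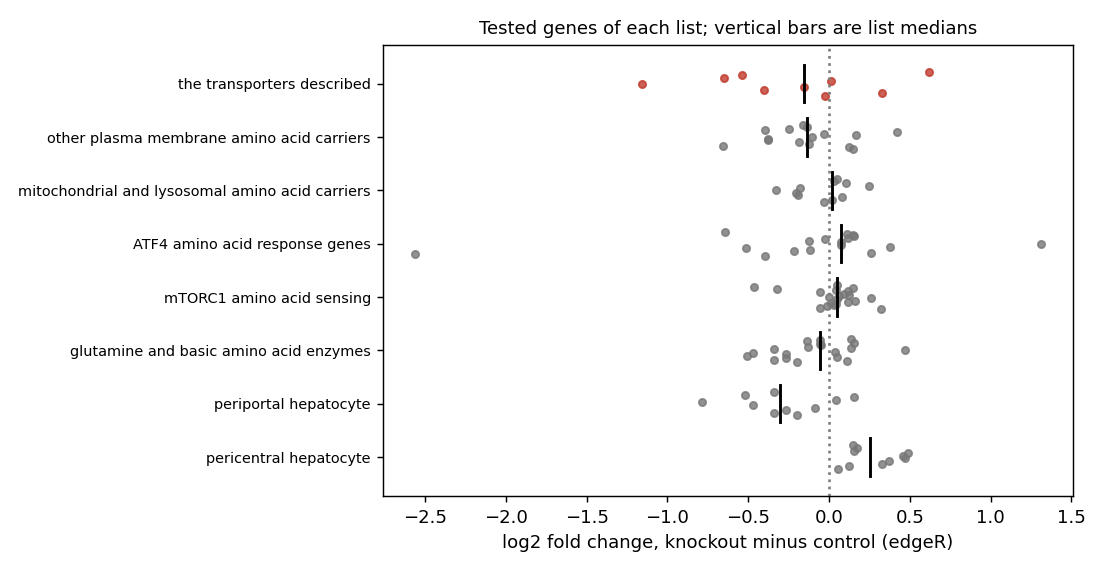
Log2 fold change, knockout minus control (horizontal), of every tested gene of the 10 transporters (red) and of 7 further lists (grey). There is 1 point per gene in each list that holds it. Vertical bars are list medians and points are spread vertically for legibility. The transporters have a median of -0.16 with Slc3a1 at -1.16, and the far left point of the ATF4 list is Asns at -2.56.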

How the data were processed

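Liver RNA of 3 knockout and 3 control mice was sequenced on a HiSeq2500 after TruSeq library preparation (per the labels' protocols). The authors deposited raw counts of reads for each gene, with exon coordinates and summed exon length per the file headers. Trimmomatic 0.33 and Subread 1.4.6-p4 with featureCounts 1.4.6-p4 appear, beside FastQC and the builds mm10 and GRCm38, in the submitters' processing notes. The sources used here do not state the strand setting, the treatment of multiply matching reads or the annotation release. Symbols came from GENCODE vM21 and matched 46488 of 46983 rows, including all 10 transporters.

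Genes were kept by edgeR's filterByExpr (16441), scaled by TMM and compared, knockout minus control, by edgeR's two-sided quasi-likelihood test with Benjamini-Hochberg adjustment over all kept genes. The fit was tested on simulated data. RPKM is CPM per kilobase of exon, and log2 CPM for pattern likeness used a prior count of 2. The libraries are biological replicates per the labels. Alternatives were DESeq2, limma-voom, 3 other scalings, no filter, all 6 columns, a replicate block, the robust prior and each library left out, and DESeq2 without each library was added after seeing the data. The members and lists were chosen with earlier results of these data known. Named genes were the members, the 3 highest by RPKM and the 3 smallest p of each list, and the 5 most like Slc3a1. Computation used edgeR 4.0.16 and limma 3.58.1 in R 4.3.3, DESeq2 1.42.0 and Python 3.11.15. Counting limits cover counting error only, since the labels' protocols describe no molecular identifiers.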

Additional observations from a re-analysis of the deposited data

How the results depend on the processing

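Slc3a1 kept its direction in each of 14 alternatives, from -0.98 to -1.38, and so did Slc43a1, Slc38a3, Slc7a2 and Slc7a5. The groups did not overlap in Slc3a1, Slc43a1 and Slc38a3, so leaving out any library could hardly turn their signs. The robust prior does not change the fold change. These alternatives therefore show the size of the estimate and are no separate check of its direction. Over all genes, DESeq2 called 6 higher and 13 lower, of which 1 was a transporter, against 0 and 1 by edgeR. Without a filter on low counts 3 were lower. The count of lower genes ran from 1 to 6 with each library left out, the 6 without control replicate 3. With a replicate block 0 genes were lower, and Mtdh had an adjusted p of 0.0517 by edgeR's quasi-likelihood test. The block rests on shared numbers only, and 2 numbers could be compared. The deviations of replicates 1 and 3 correlated at 0.06 and 0.15, and those of knockout replicate 2 and control replicate 1 at 0.11. With 2 controls the control deviations mirror each other, so these values cannot tell whether libraries were paired. Knockout replicate 2 has no partner, so the block gives it no weight in the difference. Signs turned with the block for Slc3a2 (-0.061), Slc6a6 (0.030), Lamtor2 (-0.034), Lamtor1 (-0.052), Hpd (0.054) and the median of the ATF4 list (-0.097), with upper-quartile scaling for Slc3a2 (-0.0067) and Lamtor2 (-0.013), with library totals for Slc16a10 (0.0049) and with all 6 columns for Slc16a10 (0.049). With each library left out, the range was -0.14 to 0.19 for Slc3a2, -0.10 to 0.79 for Slc38a2, -0.39 to 0.12 for Slc38a4 and -0.22 to 0.20 for Slc16a10. Over the same 5 fits the sign also turned for Slc6a12 (-0.33 to 0.15), Slc6a6 (-0.14 to 0.086), Slc25a13 (-0.018 to 0.18), Atf5 (-0.76 to 0.65), Gpt2 (-0.083 to 0.21), Lamtor2 (-0.034 to 0.053), Lamtor1 (-0.051 to 0.14), Hpd (-0.17 to 0.082), Bcat2 (-0.51 to 0.032), Oat (-0.16 to 0.55) and Cyp1a2 (-0.22 to 0.56). DESeq2 without each library, an alternative chosen after seeing the data, turned the sign of Slc3a2 without knockout replicate 2 (-0.071) or control replicate 1 (-0.15), of Slc38a2 without knockout replicate 3 (-0.11) or control replicate 1 (-0.030), of Slc38a4 without control replicate 1 (0.11) and of Slc16a10 without knockout replicate 3 (0.015) or control replicate 3 (0.20). Without a control the remaining one is assumed to vary like the knockouts. The cause of these changes was not tested.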
